A study of Homo sapiens with 16 samples.

Results

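The genes described here are 43 genes of ribosome biogenesis and RNA polymerase I (Pol I) transcription, of 58295 genes in the GENCODE release 29 annotation. They were chosen by symbol from a list of names, with earlier results of these data known. Counts of members beside shares of all genes therefore describe the list and are not an independent test of it. Each gene's value is the sum over its annotated transcripts. All 43 were found in the files, and all 43 passed the filter on low counts, among 18073 genes tested. Here they are ordered by role: 5 genes of Pol I transcription, 3 of the box C/D small nucleolar ribonucleoprotein (snoRNP), 4 of the H/ACA snoRNP and its chaperone, 2 of abundant nucleolar proteins, 12 of the small-subunit processome and 40S maturation, 15 of large-subunit assembly and 2 other nucleolar factors.

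Ribosomes are made in the nucleolus, where Pol I transcribes a long precursor of the ribosomal RNAs. Box C/D and H/ACA snoRNPs modify that precursor, and large assembly complexes cleave and fold it while ribosomal proteins bind, on separate routes for the small and the large subunit. Growing cells, Jurkat leukemia cells among them, keep the pathway highly active, and many of its genes carry an E-box in the promoter, the letters CACGTG that the transcription factor MYC can bind.

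The study used JSL1, a clone of the Jurkat human T cell leukemia line, and 2 derivatives edited with CRISPR-Cas9 at the histone deacetylase gene HDAC7. The lines labelled iE9 carry a knock-in of HDAC7 exon 9, the lines labelled dE9 a knock-out of that exon, and WT is unedited JSL1. Cells were harvested after 48 h with 20 ng/mL of the phorbol ester PMA (phorbol 12-myristate 13-acetate, an activator of protein kinase C) or after growth in medium alone. There were 3 libraries each of iE9 with PMA, unstimulated iE9, dE9 with PMA and unstimulated dE9, and 2 each of WT with PMA and unstimulated WT. The sample labels give 48 h for every library, while the design text contrasts 48 h with 0 h. Neither says whether libraries of a group came from separate cultures or whether an edited line is 1 clone, so p-values measure only the spread between these libraries, which may be technical. Polyadenylated RNA was sequenced, so the ribosomal RNA itself was not measured.

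The 16 libraries held 14536537 to 21888896 estimated transcript counts. Mitochondrially encoded genes took 3.00% to 6.39% of the counts in 14 libraries, but 12.81% in iE9 PMA library 1 and 9.17% in unstimulated iE9 library 1. The share was higher with PMA: 5.20% to 6.39% in dE9 cells with PMA against 3.00% to 3.69% without it, and 5.76% to 6.04% in WT cells with PMA against 3.48% to 3.75% without it, while in iE9 cells 5.67% to 12.81% with PMA overlapped 3.85% to 9.17% without it. On the first principal component (44% of the variance of log2 normalised counts), PMA libraries scored 28 to 96.8 and unstimulated libraries -92 to -27.1, with dE9 PMA library 1 the lowest of the PMA libraries. All 9 T cell markers averaged at least 1 TPM over the libraries, while the summed TPM of the 5 myeloid markers was at most 1.41. Of 5 B cell markers only CD79A averaged at least 1 TPM (121.7 TPM). The summed TPM of these 5 also moved with PMA, at 304.1 to 539 in iE9 cells with PMA against 52.5 to 187.8 without it and 47.3 to 83.4 in WT cells with PMA against 16.8 to 28.6 without it, and overlapped in dE9 cells; its part in the results was not tested. The labels give no coordinates for exon 9 of HDAC7; the exon taken for it was picked in the GENCODE annotation by its length, and lies on GRCh38 (hg38) at chr12:47795906-47796016. Transcripts that hold it made up 42.31%, 63.00% and 44.27% of the HDAC7 TPM assignable to exon 9 in iE9 cells with PMA, and 58.27%, 51.78% and 74.85% in unstimulated iE9 cells. The share was 0%, 0.68% and 0% in dE9 cells with PMA, and 2.14%, 0.84% and 7.37% in unstimulated dE9 cells. In WT cells it was 43.08% and 53.76% with PMA, and 46.60% and 47.49% without it. The dE9 libraries thus lay below all others, whereas the iE9 and WT libraries with PMA overlapped, so the share does not separate the line labelled iE9 from WT under PMA. Every unstimulated iE9 library lay above both unstimulated WT libraries in this share. On the second principal component (13.4% of the variance), iE9 libraries scored -74 to -31 and all others 1.3 to 45.6.

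Most of the 43 genes were lower with PMA in all 3 lines. Of the 43, 40 passed the test as lower in iE9 cells (14.4% of all 18073 genes did), 41 in dE9 cells (16.5% of all genes) and 34 in WT cells (11.3% of all genes). No member passed as higher in edgeR's quasi-likelihood test at an adjusted p under 0.05, where 12.6%, 17.1% and 11.1% of all genes did in iE9, dE9 and WT cells. The count of members higher at an unadjusted p under 0.05 was also 0 in each line, as was the count by DESeq2 and by limma voom. The median log2 change of the members was -1.35 in iE9, -1.21 in dE9 and -1.09 in WT cells, beside medians over all genes of -0.01, 0.06 and 0.03. In each line 24 members fell by at least 2-fold, and the share of all genes with such a fall was not taken. Between 39 and 42 members had every PMA library below every unstimulated library in CPM (estimated counts scaled to library size): 39 in iE9 cells (21.2% of all genes did), 42 in dE9 cells (23.1%) and 42 in WT cells (36%). The 3 comparisons use separate libraries but 1 estimate of the spread. The part of the mitochondrial share, which moved with PMA, was not tested, and with mitochondrial genes left out of the fit 40, 41 and 34 members passed as lower. In these bulk libraries fewer cells of a type and less RNA per cell cannot be told apart.

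Across lines, 34 of the 43 genes fell in all 3, 6 in 2 lines, PNO1 in dE9 cells only, and RRN3 and NIP7 in none. With each library left out in turn, 37 of the 40 calls in iE9, 38 of the 41 in dE9 and 20 of the 34 in WT cells passed in every fit. The 14 WT calls lost in at least 1 such fit were POLR1B, NOP58, NHP2, UTP4, UTP15, WDR75, HEATR1, RRP12, NOP14, WDR12, NOP16, NOC2L, DDX18 and RRP1B, those lost in dE9 cells UBTF, WDR75 and PNO1, and those lost in iE9 cells UBTF, GAR1 and DDX18. Leaving out WT libraries moved the WT count most: leaving out the unstimulated ones gave 23 (number 1) and 25 (number 2), and leaving out those with PMA 21 (number 1) and 25 (number 2). The share of all genes passing as lower in WT cells was then 3.84% and 5.01% without the unstimulated libraries and 3.15% and 3.47% without those with PMA, against 11.3% with all libraries. With both iE9 libraries numbered 1 left out, the counts were 41 in iE9, 42 in dE9 and 40 in WT cells. Library numbers paired the libraries within the iE9 and dE9 lines, and with the number as a block within each line the counts were 42 in iE9, 42 in dE9 and 40 in WT cells.

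**Figure D1:**
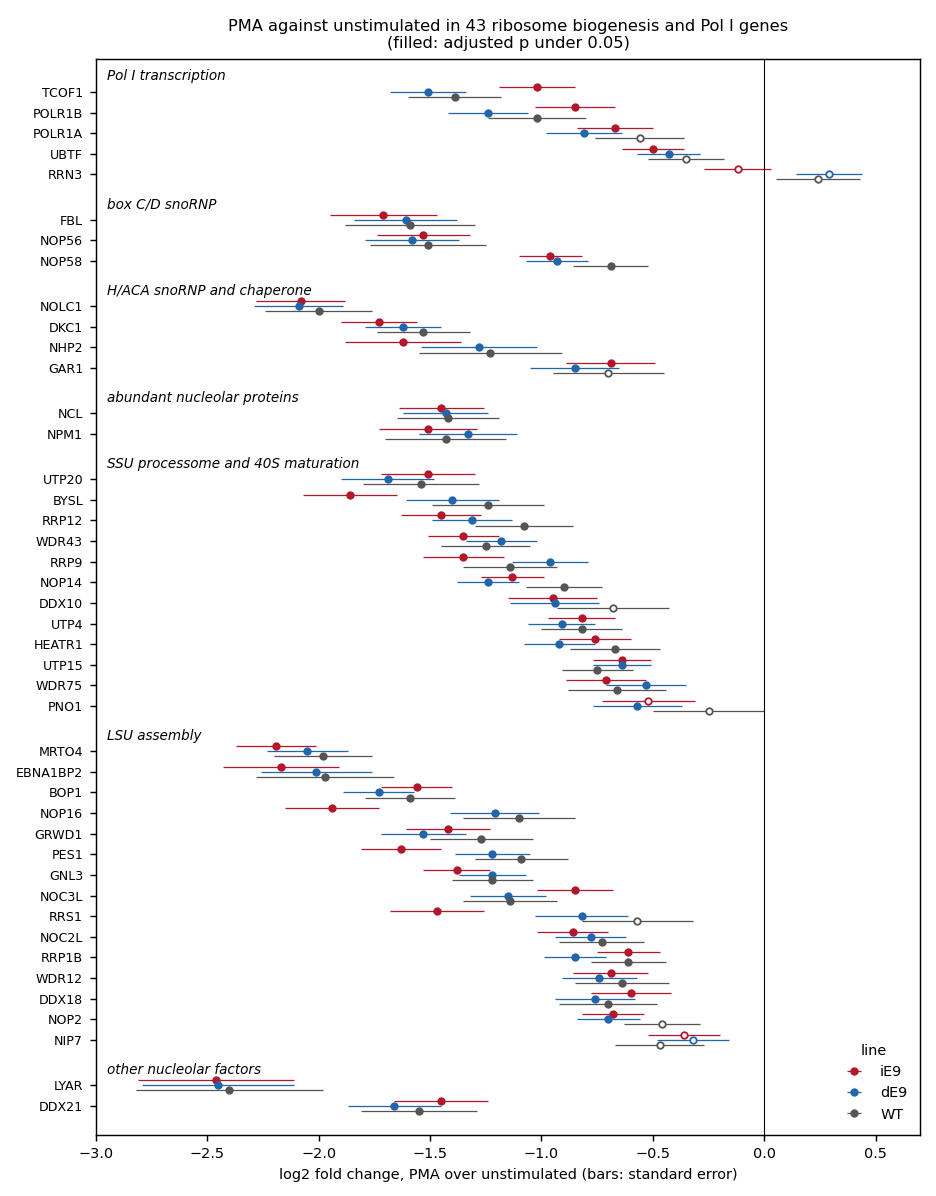
Log2 fold change of PMA over unstimulated cells (x axis) for the 43 genes (y axis, by role), in iE9, dE9 and WT cells; bars are standard errors and filled points have an adjusted p under 0.05. All points but those of RRN3 in dE9 (0.29) and WT cells (0.24) lie below 0, and LYAR reaches -2.46 in iE9 cells.

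The summed level of the 43 genes shows the same difference in TPM, the transcript scale that corrects for length. The sum was 2608, 3585 and 3444 TPM in iE9 cells with PMA, against 6601, 8057 and 7202 TPM in unstimulated iE9 cells. In dE9 cells it was 4015, 3838 and 4021 TPM with PMA and 9675, 9162 and 9598 TPM without it, and in WT cells 3747 and 3900 TPM with PMA and 8817 and 8598 TPM without it. No PMA library reached the lowest unstimulated one. Both iE9 libraries numbered 1, which have the highest mitochondrial shares, had the lowest sum of their treatment: 37 of the 43 genes lay below the group mean in iE9 PMA library 1 and 33 in unstimulated iE9 library 1 (median deviations of -0.27 and -0.16 in log2 CPM). The part of the mitochondrial share in these levels was not tested. Averaged over all 16 libraries, NPM1 made up 36.7% of the summed member TPM, NOP56 8.3%, NCL 7.8%, FBL 5.8% and NHP2 4.8%, and the order of NOP56 and NCL differed between groups. Protein-coding transcripts held 45.0% to 47.6% of the NPM1 TPM and 12.5% to 24.4% of the NOP56 TPM, by group. The sum and this order therefore depend on which transcripts are added up. UTP20 had the lowest mean level, 7.67 TPM.

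**Figure D2:**
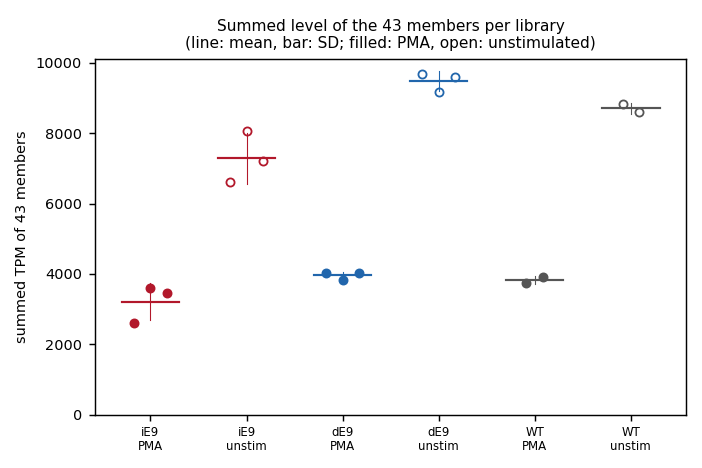
Summed TPM of the 43 genes (y axis, from 0) in each library by line and treatment; filled points are PMA libraries, open points unstimulated ones, lines the group means and bars the SD. PMA libraries sit between 2608 and 4021 TPM and unstimulated libraries between 6601 and 9675 TPM.

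Promoters of 35 of the 43 genes were found in the RefSeq promoter table (GRCh38.p14, 250 bases before to 50 after each annotated start). The E-box CACGTG, which reads the same on both strands, was present in 17 of the 35 genes (48.6%), in 12.44% of the 11367 tested genes in the table and in 7.26% of its 35116 promoters. The ETS-type letters CCGGAAGT, searched on both strands, were in 9 of the 35 (25.7%) and in 9.12% of tested genes. GGGCGG, also searched on both strands, was in 26 of the 35 (74.3%) and 74.36% of tested genes. The NRF1-type palindrome was in 2 (5.7% and 2.59%) and the ZBTB33-type palindrome in 1 (2.9% and 0.94%). None of the 5 motifs contains another. Members with CACGTG had a median log2 change of -1.38 in iE9, -1.22 in dE9 and -1.22 in WT cells (n = 17), and members without it -0.86, -0.93 and -0.74 (n = 18). Over all tested genes in the table the medians were -0.13, -0.10 and -0.09 with CACGTG and -0.02, 0.02 and 0.01 without it. A match describes letters in this window, not binding.

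Stretches of 280 bases, from 250 before to 30 after the start site, are shown 5′ to 3′ for genes with large falls and for RRN3, which passed in no line; capitals mark the motif. MRTO4, DDX21, LYAR and FBL are shown for their E-box, which begins 14 bases after the start in MRTO4, 31 before it in DDX21, 64 before it in LYAR and 6 after it in FBL. NOP56 is shown as a gene that fell with none in the window. RRN3 is shown for CCGGAAGT, which lies on the opposite strand and so reads ACTTCCGG, beginning 38 bases before the start. For DDX21, LYAR and RRN3 the promoter table holds 2 promoters each. The promoter shown was picked for holding the motif, and distances are from its start site. The positions are chr1:19251555-19251834 on the plus strand, chr10:68956397-68956676 on the plus strand, chr4:4289992-4290271 on the minus strand, chr19:39846350-39846629 on the minus strand, chr20:2652382-2652661 on the plus strand and chr16:15094243-15094522 on the minus strand.
MRTO4: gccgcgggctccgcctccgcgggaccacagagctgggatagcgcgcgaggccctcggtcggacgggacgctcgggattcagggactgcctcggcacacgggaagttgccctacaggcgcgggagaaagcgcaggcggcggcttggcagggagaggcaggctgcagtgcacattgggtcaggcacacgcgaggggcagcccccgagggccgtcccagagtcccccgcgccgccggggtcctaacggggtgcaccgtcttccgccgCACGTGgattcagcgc
DDX21: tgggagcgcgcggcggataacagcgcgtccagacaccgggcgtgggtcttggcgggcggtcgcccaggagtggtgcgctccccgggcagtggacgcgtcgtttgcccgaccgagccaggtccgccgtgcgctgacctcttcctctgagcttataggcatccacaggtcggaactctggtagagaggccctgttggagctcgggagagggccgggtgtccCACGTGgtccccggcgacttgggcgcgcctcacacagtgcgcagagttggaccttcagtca
LYAR: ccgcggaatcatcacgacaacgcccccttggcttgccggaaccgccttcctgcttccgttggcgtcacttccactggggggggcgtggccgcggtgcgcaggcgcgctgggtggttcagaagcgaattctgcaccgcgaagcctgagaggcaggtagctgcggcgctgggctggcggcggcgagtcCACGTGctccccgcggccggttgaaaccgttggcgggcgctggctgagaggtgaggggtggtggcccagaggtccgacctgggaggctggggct
FBL: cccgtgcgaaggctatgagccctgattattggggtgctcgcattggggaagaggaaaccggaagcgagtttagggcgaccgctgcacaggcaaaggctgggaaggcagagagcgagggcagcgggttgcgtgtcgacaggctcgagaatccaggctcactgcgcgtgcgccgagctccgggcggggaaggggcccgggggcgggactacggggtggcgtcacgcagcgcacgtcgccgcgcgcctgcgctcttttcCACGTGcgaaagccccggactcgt
NOP56: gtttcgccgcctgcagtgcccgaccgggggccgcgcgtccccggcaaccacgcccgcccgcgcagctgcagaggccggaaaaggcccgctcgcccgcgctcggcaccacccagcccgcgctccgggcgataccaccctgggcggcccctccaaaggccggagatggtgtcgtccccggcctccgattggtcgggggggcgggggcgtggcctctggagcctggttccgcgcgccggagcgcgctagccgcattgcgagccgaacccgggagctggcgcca
RRN3: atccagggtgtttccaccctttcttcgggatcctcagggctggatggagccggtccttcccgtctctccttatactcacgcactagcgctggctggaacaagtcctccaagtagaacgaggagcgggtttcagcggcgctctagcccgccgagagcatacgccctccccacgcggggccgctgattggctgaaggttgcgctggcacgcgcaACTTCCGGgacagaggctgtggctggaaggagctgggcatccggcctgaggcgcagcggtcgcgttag

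The Pol I group was uneven: TCOF1 and POLR1B fell in every line, POLR1A and UBTF passed in the edited lines, and in WT cells under some alternatives only, and RRN3 passed in none. Of 5 genes, 4 fell in iE9, 4 in dE9 and 2 in WT cells, with medians of -0.67, -0.81 and -0.56. TCOF1 encodes treacle, a nucleolar phosphoprotein that binds Pol I and UBTF. TCOF1 had 88.1, 113 and 99.9 CPM in iE9 cells with PMA, against 181, 227 and 205 CPM in unstimulated iE9 cells. In dE9 cells TCOF1 had 114, 74.8 and 81.8 CPM with PMA and 234, 258 and 278 CPM without it. In WT cells TCOF1 had 85.4 and 85.3 CPM with PMA and 220.2 and 227 CPM without it. No PMA value of TCOF1 reached an unstimulated one, and it fell in every line, with log2 changes of -1.02 ± 0.17 in iE9 cells, -1.51 ± 0.17 in dE9 cells and -1.39 ± 0.21 in WT cells (SE; adjusted p = 0.000625, 2.63e-05 and 0.000538 in the same order of lines). POLR1B encodes a catalytic subunit of the enzyme. POLR1B had 26.8, 33.8 and 38.7 CPM in iE9 cells with PMA, against 53.4, 65.5 and 60.4 CPM in unstimulated iE9 cells. In dE9 cells POLR1B had 26.6, 31.5 and 23.8 CPM with PMA and 72.4, 57.7 and 63.3 CPM without it. In WT cells POLR1B had 29.1 and 39.9 CPM with PMA and 75.8 and 63.9 CPM without it. All PMA libraries were the lower ones here too, and POLR1B fell by 0.85 ± 0.18 in iE9 cells, 1.24 ± 0.18 in dE9 cells and 1.02 ± 0.22 in WT cells on the log2 scale (adjusted p = 0.0032, 0.000176 and 0.00518 in the same order of lines). Its WT call was lost without unstimulated WT library 1 (0.0671) and without WT PMA library 1 (0.101).

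POLR1A, the largest subunit, had smaller log2 changes. POLR1A had 91.2, 115 and 118 CPM in iE9 cells with PMA, against 182, 174 and 159 CPM in unstimulated iE9 cells. In dE9 cells POLR1A had 91.0, 103 and 136 CPM with PMA and 193, 172 and 214 CPM without it. In WT cells POLR1A had 106 and 117 CPM with PMA and 165 and 164 CPM without it. Although PMA libraries were below unstimulated ones in each line, POLR1A fell in iE9 (-0.67, adjusted p = 0.0081) and dE9 cells (-0.81, adjusted p = 0.00183), while the WT change of -0.56 did not pass (adjusted p = 0.0609). It passed under 7 alternatives (adjusted p = 0.00104 to 0.0415), among them the library number as a block within each line (0.0197). With length-scaled counts, neither the iE9 nor the dE9 call was kept (adjusted p = 0.243 and 0.203). UBTF encodes the HMG-box factor that keeps ribosomal RNA genes open for Pol I. UBTF had 188, 217 and 224 CPM in iE9 cells with PMA, against 271, 322 and 296 CPM in unstimulated iE9 cells. In dE9 cells UBTF had 246, 225 and 218 CPM with PMA and 304, 346 and 281 CPM without it. In WT cells UBTF had 209.6 and 218 CPM with PMA and 274 and 271 CPM without it. The groups did not overlap, yet the differences were small: UBTF fell by 0.50 in iE9 and 0.43 in dE9 on the log2 scale (adjusted p = 0.0147 and 0.0246), and the WT change of -0.35 did not pass (adjusted p = 0.148), though it did under 4 alternatives (0.0101 to 0.0416). Both UBTF calls were lost without the filter on low counts (adjusted p = 0.127 and 0.195) and in fits of only the groups compared (0.0808 and 0.0578).

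RRN3, the factor that recruits Pol I to its promoter, passed the test in no line. RRN3 had 77.0, 96.0 and 106 CPM in iE9 cells with PMA, against 104, 102 and 98.4 CPM in unstimulated iE9 cells. In dE9 cells RRN3 had 86.7, 115 and 119 CPM with PMA and 91.8, 87.5 and 83.8 CPM without it. In WT cells RRN3 had 105 and 106 CPM with PMA and 94.6 and 85.1 CPM without it. WT libraries with PMA lay above both unstimulated ones (37.4% of all genes did), whereas the groups overlapped in iE9 and in dE9 cells. Its log2 changes were -0.12 ± 0.15 in iE9 cells, 0.29 ± 0.15 in dE9 cells and 0.24 ± 0.19 in WT cells, and none passed (adjusted p = 0.592, 0.162 and 0.395 in the same order of lines). RRN3 is uncertain because 3 annotated pseudogene copies averaged 23.91 TPM in sum, beside 41.15 TPM for RRN3, and reads can be split between them. The most abundant copy, RRN3P1, averaged 26.68 ± 5.29 TPM in iE9 cells with PMA and 12.47 ± 3.88 TPM without it (SD, n = 3 each). With the copies added, the change was 0.14 in iE9, 0.43 in dE9 and 0.35 in WT cells, and the dE9 rise then passed (adjusted p = 0.0276). RRN3 alone passed as higher in dE9 cells without dE9 PMA library 1 (0.42, adjusted p = 0.0362) and over protein-coding transcripts (0.41, adjusted p = 0.0359). RRN3 overlaps PDXDC1 on the opposite strand, and the sources used here do not say whether counting used strand.

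All 3 of the genes here that encode proteins of the box C/D snoRNP, which guides ribose methylation, fell in every line, with group medians of -1.53 in iE9, -1.58 in dE9 and -1.51 in WT cells. FBL is fibrillarin, the methyltransferase of the particle. FBL had 69.1, 113 and 109.5 CPM in iE9 cells with PMA, against 209.7, 381 and 364 CPM in unstimulated iE9 cells. In dE9 cells FBL had 154, 135 and 114 CPM with PMA and 400.2, 404 and 429 CPM without it. In WT cells FBL had 147 and 129 CPM with PMA and 453 and 379 CPM without it. Every PMA library was below every unstimulated one, and FBL fell by 1.71 ± 0.24 in iE9 cells, 1.61 ± 0.23 in dE9 cells and 1.59 ± 0.29 in WT cells (log2, SE; adjusted p = 0.000139, 0.000159 and 0.00165 in the same order of lines). NOP58, a scaffold of the particle, had smaller log2 changes. NOP58 had 89.1, 108 and 106 CPM in iE9 cells with PMA, against 195, 208 and 188 CPM in unstimulated iE9 cells. In dE9 cells NOP58 had 126, 114 and 102 CPM with PMA and 205, 238 and 208 CPM without it. In WT cells NOP58 had 126 and 114 CPM with PMA and 196 and 192 CPM without it. Again the groups were apart, with log2 changes of -0.96 ± 0.14 in iE9 cells, -0.93 ± 0.14 in dE9 cells and -0.69 ± 0.17 in WT cells (adjusted p = 0.000181, 0.000177 and 0.00912 in the same order of lines). The WT call of NOP58 was lost without the filter on low counts (adjusted p = 0.0696) and without any of the 4 WT libraries (0.0579 to 0.104).

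NOP56, the partner scaffold, fell to about the same extent as FBL, but its value depends on which transcripts are summed. NOP56 had 247, 158 and 160.4 CPM in iE9 cells with PMA, against 669.5, 509.9 and 459.7 CPM in unstimulated iE9 cells. In dE9 cells NOP56 had 232, 164 and 160.1 CPM with PMA and 525, 564 and 579 CPM without it. In WT cells NOP56 had 178 and 170.4 CPM with PMA and 489.5 and 501 CPM without it. The groups were apart in each line, and the log2 changes were -1.53 ± 0.21 in iE9 cells, -1.58 ± 0.21 in dE9 cells and -1.51 ± 0.26 in WT cells (adjusted p = 0.000135, 8.2e-05 and 0.00116 in the same order of lines). Over protein-coding transcripts only, the changes were -0.64 in iE9, -0.36 in dE9 and -0.27 in WT cells and none passed (adjusted p = 0.136, 0.395 and 0.65). Protein-coding transcripts held 23.8% ± 3.2 of the NOP56 TPM in iE9 cells with PMA and 15.5% ± 2.5 without it, 24.4% ± 6.3 and 13.9% ± 1.3 in dE9 cells, and 23.1% ± 3.9 and 12.5% ± 1.7 in WT cells (SD; n = 3, 3 and 2 libraries a group). The transcript that fell most in share was an annotated non-coding transcript of 1143 nt and 5 exons. Its share was 4.44% ± 2.47 in iE9 cells with PMA and 29.4% ± 14.6 without it, 9.73% ± 10.8 and 32.3% ± 3.1 in dE9 cells, and 5.85% ± 1.54 and 36.4% ± 3.2 in WT cells. NOP56 holds 5 annotated small nucleolar RNA genes within its span, whose part in these values was not tested.

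The H/ACA group, which guides pseudouridylation, also fell: all 4 genes in iE9 and dE9 cells and 3 of 4 in WT cells, with medians of -1.68, -1.45 and -1.38. NOLC1 encodes the chaperone that links snoRNPs to the nucleolus and had the largest fall of the group. NOLC1 had 60.4, 89.5 and 84.1 CPM in iE9 cells with PMA, against 299.5, 383 and 310.5 CPM in unstimulated iE9 cells. In dE9 cells NOLC1 had 111.2, 81.9 and 102 CPM with PMA and 428, 340.4 and 486 CPM without it. In WT cells NOLC1 had 98.4 and 116 CPM with PMA and 445 and 413 CPM without it. The treatments were far apart in every line, and the log2 changes were -2.08 ± 0.20 in iE9 cells, -2.09 ± 0.20 in dE9 cells and -2.00 ± 0.24 in WT cells (adjusted p = 9.24e-06, 7.21e-06 and 0.000114 in the same order of lines). DKC1 is dyskerin, the pseudouridine synthase. DKC1 had 46.2, 61.5 and 63.5 CPM in iE9 cells with PMA, against 155, 221 and 191 CPM in unstimulated iE9 cells. In dE9 cells DKC1 had 82.0, 71.7 and 62.9 CPM with PMA and 207, 230.4 and 230.2 CPM without it. In WT cells DKC1 had 70.2 and 74.8 CPM with PMA and 211 and 208 CPM without it. PMA libraries formed a narrow band below all others, and DKC1 fell by 1.73 ± 0.17 in iE9 cells, 1.62 ± 0.17 in dE9 cells and 1.53 ± 0.21 in WT cells (log2; adjusted p = 1.24e-05, 1.37e-05 and 0.000246 in the same order of lines).

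Of the 43 genes, those of the particle's other core proteins are NHP2, which fell in every line, and GAR1, which passed in the edited lines. The gene of a further core protein, NOP10, is not among the 43 and belongs to the wider list below. NOP10 averaged 276.4 ± 87.5 TPM in iE9 cells with PMA and 308.7 ± 77 TPM without it (SD). In dE9 cells it averaged 289.7 ± 27.4 and 272.1 ± 9.54 TPM, and in WT cells 256.3 ± 18.6 and 253.9 ± 0.79 TPM. NHP2 had 36.8, 69.0 and 76.3 CPM in iE9 cells with PMA, against 118, 234 and 208 CPM in unstimulated iE9 cells. In dE9 cells NHP2 had 107, 94.1 and 90.3 CPM with PMA and 249.6, 231 and 229.7 CPM without it. In WT cells NHP2 had 102 and 91.2 CPM with PMA and 229.9 and 222 CPM without it. In iE9 cells library 1 was the lowest of each treatment. Log2 changes of NHP2 were -1.62 ± 0.26 in iE9 cells, -1.28 ± 0.26 in dE9 cells and -1.23 ± 0.32 in WT cells (adjusted p = 0.000493, 0.00165 and 0.0131 in the same order of lines). Its WT call was lost without any of the 4 WT libraries (0.0581 to 0.107), and the gene overlaps RMND5B on the opposite strand. GAR1 had 29.9, 49.8 and 46.4 CPM in iE9 cells with PMA, against 49.3, 85.0 and 69.7 CPM in unstimulated iE9 cells. In dE9 cells GAR1 had 47.6, 43.1 and 44.9 CPM with PMA and 84.7, 79.5 and 80.8 CPM without it. In WT cells GAR1 had 52.6 and 47.2 CPM with PMA and 83.0 and 79.5 CPM without it. Unstimulated iE9 library 1 lay below iE9 PMA library 2, so the iE9 groups overlapped, while those of dE9 and WT did not. GAR1 fell in iE9 (-0.69, adjusted p = 0.0192) and dE9 cells (-0.85, adjusted p = 0.00471) and had -0.70 in WT cells, which did not pass (adjusted p = 0.0528) but did under 8 alternatives (0.000485 to 0.049). The iE9 call was lost in a fit of only the groups compared (adjusted p = 0.0847).

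The genes of the 2 abundant nucleolar proteins fell in every line. NCL is nucleolin, which binds nascent ribosomal RNA. NCL had 351, 523 and 547 CPM in iE9 cells with PMA, against 1095, 1466 and 1314 CPM in unstimulated iE9 cells. In dE9 cells NCL had 717, 589 and 535 CPM with PMA and 1622, 1641 and 1698 CPM without it. In WT cells NCL had 586 and 595 CPM with PMA and 1644 and 1517 CPM without it. No library with PMA came near an unstimulated one, and NCL fell by 1.45 ± 0.19 in iE9 cells, 1.43 ± 0.19 in dE9 cells and 1.42 ± 0.23 in WT cells on the log2 scale (adjusted p = 0.000102, 8.28e-05 and 0.000934 in the same order of lines). NPM1 is nucleophosmin, a histone and ribosome chaperone. NPM1 had 304, 516 and 495 CPM in iE9 cells with PMA, against 899, 1524 and 1331 CPM in unstimulated iE9 cells. In dE9 cells NPM1 had 709.7, 704 and 632 CPM with PMA and 1832, 1574 and 1724 CPM without it. In WT cells NPM1 had 654 and 607 CPM with PMA and 1767 and 1626 CPM without it. The lowest value of each treatment came from iE9 library 1, and the groups were apart in each line. NPM1 changed by -1.51 ± 0.22 in iE9 cells, -1.33 ± 0.22 in dE9 cells and -1.43 ± 0.27 in WT cells (log2, SE; adjusted p = 0.000226, 0.000431 and 0.0022 in the same order of lines). In TPM it averaged 995 ± 291 in iE9 cells with PMA and 2489.6 ± 518 without it, 1485 ± 70.2 and 3686 ± 230 in dE9 cells, and 1365 ± 44.5 and 3449 ± 93.4 in WT cells (SD). Of this level, 51.3% to 54.6% by group was assigned to a retained-intron transcript of 268 nt.

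**Figure D3:**
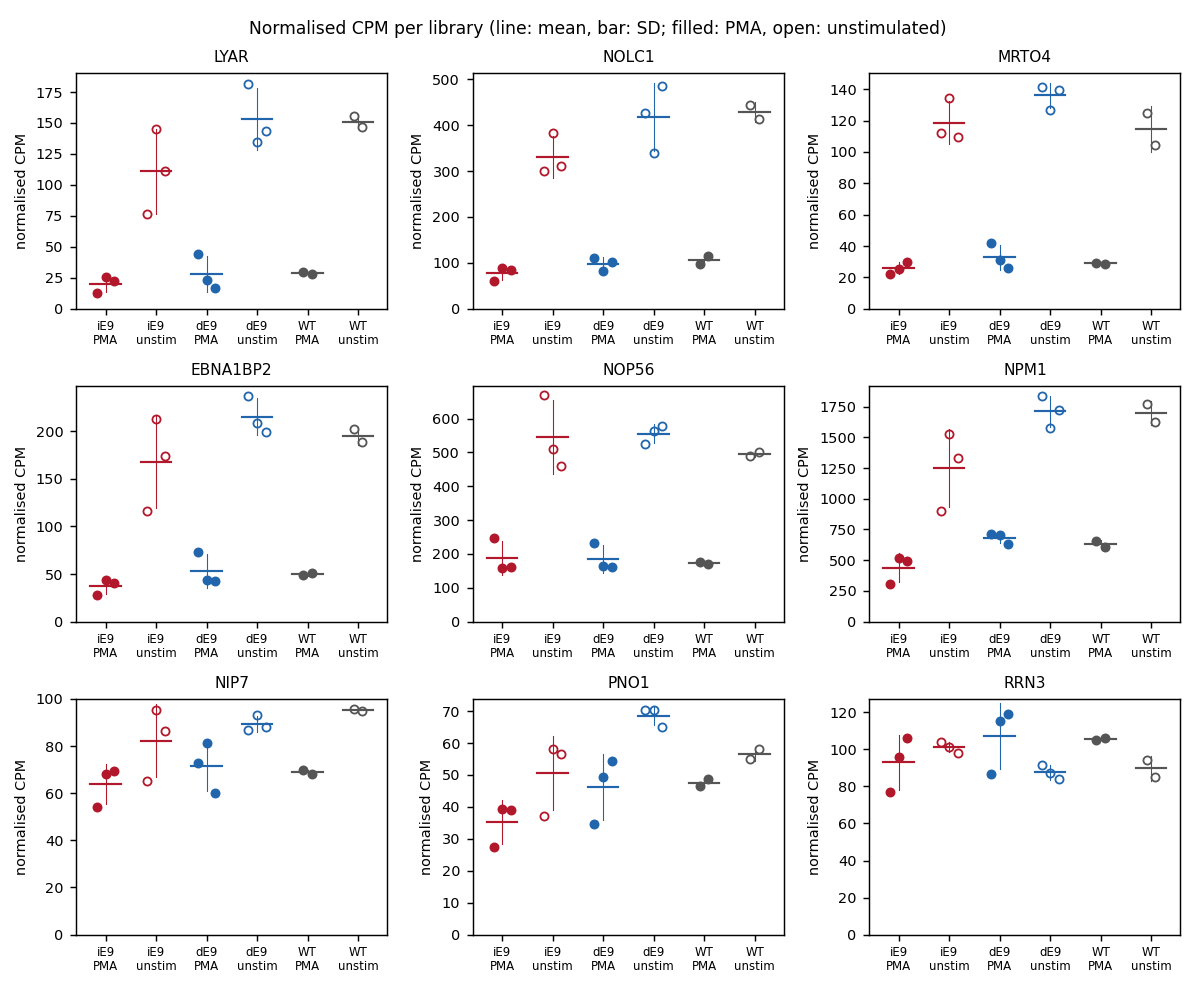
Normalised CPM (y axes, from 0) per library for 9 genes, by line and treatment; filled points are PMA libraries, open points unstimulated ones, lines group means and bars SD. LYAR, NOLC1, MRTO4, EBNA1BP2, NOP56 and NPM1 have all PMA libraries below all unstimulated ones, NIP7 and PNO1 differ less, and RRN3 has the higher mean with PMA in dE9 and WT cells.

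In the small-subunit group, 11 of 12 genes fell in iE9, 12 in dE9 and 10 in WT cells, with medians of -1.04, -0.95 and -0.86. UTP20 is a large scaffold of the processome and had the largest mean fall of the group. UTP20 had 22.6, 24.3 and 26.6 CPM in iE9 cells with PMA, against 87.8, 63.1 and 58.4 CPM in unstimulated iE9 cells. In dE9 cells UTP20 had 24.4, 20.2 and 32.6 CPM with PMA and 82.9, 70.4 and 96.1 CPM without it. In WT cells UTP20 had 22.0 and 31.1 CPM with PMA and 81.2 and 73.4 CPM without it. PMA libraries were all lower, with log2 changes of -1.51 ± 0.21 in iE9 cells, -1.69 ± 0.21 in dE9 cells and -1.54 ± 0.26 in WT cells (adjusted p = 0.000177, 5.87e-05 and 0.00115 in the same order of lines). BYSL encodes bystin, which acts in late processing of the small subunit. BYSL had 12.5, 23.9 and 22.1 CPM in iE9 cells with PMA, against 56.9, 81.4 and 74.7 CPM in unstimulated iE9 cells. In dE9 cells BYSL had 32.6, 30.7 and 34.1 CPM with PMA and 89.9, 78.0 and 88.4 CPM without it. In WT cells BYSL had 34.5 and 31.7 CPM with PMA and 77.5 and 79.4 CPM without it. Here iE9 PMA library 1 had the lowest value of all 16, and BYSL fell by 1.86 ± 0.21 in iE9 cells, 1.40 ± 0.21 in dE9 cells and 1.24 ± 0.25 in WT cells on the log2 scale (adjusted p = 3.26e-05, 0.000177 and 0.00324 in the same order of lines).

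RRP12 is needed for export of pre-ribosomal particles, as known from yeast. RRP12 had 34.0, 33.0 and 30.1 CPM in iE9 cells with PMA, against 94.97, 88.8 and 80.8 CPM in unstimulated iE9 cells. In dE9 cells RRP12 had 54.7, 32.1 and 39.0 CPM with PMA and 98.9, 95.1 and 118 CPM without it. In WT cells RRP12 had 39.8 and 44.2 CPM with PMA and 86.7 and 91.1 CPM without it. The treatments did not overlap, and RRP12 changed by -1.45 ± 0.18 in iE9 cells, -1.31 ± 0.18 in dE9 cells and -1.08 ± 0.22 in WT cells (log2; adjusted p = 6.41e-05, 9.68e-05 and 0.00312 in the same order of lines), the WT call being lost without WT PMA library 1 (0.0525). WDR43 belongs to the UTP-A complex that starts processome assembly. WDR43 had 38.0, 48.4 and 51.8 CPM in iE9 cells with PMA, against 114, 124 and 115 CPM in unstimulated iE9 cells. In dE9 cells WDR43 had 47.0, 62.3 and 73.3 CPM with PMA and 141, 134 and 138 CPM without it. In WT cells WDR43 had 56.1 and 55.2 CPM with PMA and 132 and 132 CPM without it. It too had only lower values with PMA, and fell by 1.35 ± 0.16 in iE9 cells, 1.18 ± 0.16 in dE9 cells and 1.25 ± 0.20 in WT cells (log2; adjusted p = 5.61e-05, 0.000119 and 0.000815 in the same order of lines). Within the group the other members of the UTP-A complex had smaller log2 changes: UTP4 changed by -0.82, -0.91 and -0.82 in iE9, dE9 and WT cells, UTP15 by -0.64, -0.64 and -0.75, HEATR1 by -0.76, -0.92 and -0.67, and WDR75 by -0.71, -0.53 and -0.66. All of these passed, but the WDR75 and HEATR1 calls in WT cells were lost over protein-coding transcripts only (adjusted p = 0.0528 and 0.0781), and that of WDR75 in dE9 cells was lost in 9 fits with 1 library left out (0.051 to 0.104). Without the filter on low counts the WT calls of WDR75, HEATR1 and UTP15 were lost too (adjusted p = 0.0883, 0.0826 and 0.0719). That of WDR75 was also lost with relative log expression scaling (0.0513), upper-quartile scaling (0.0595) and length-scaled counts (0.185). RRP9 (a U3 snoRNP protein), NOP14 and the helicase gene DDX10 changed by -1.35, -1.13 and -0.95 in iE9 cells. DDX10 did not pass in WT cells (adjusted p = 0.0586), but did under 6 alternatives (0.00128 to 0.0378). Its iE9 and dE9 calls were lost with length-scaled counts (adjusted p = 0.143 and 0.0888).

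PNO1, which stays on the small-subunit precursor into the cytoplasm, passed in 1 line only. PNO1 had 27.3, 39.4 and 39.2 CPM in iE9 cells with PMA, against 37.2, 58.1 and 56.7 CPM in unstimulated iE9 cells. In dE9 cells PNO1 had 34.5, 49.5 and 54.4 CPM with PMA and 70.4, 70.3 and 65.1 CPM without it. In WT cells PNO1 had 46.4 and 48.7 CPM with PMA and 55.0 and 58.2 CPM without it. The iE9 treatments overlapped through unstimulated library 1, and those of dE9 and WT did not. PNO1 passed in dE9 cells only (-0.57 ± 0.20, adjusted p = 0.0422), and that call was lost with upper-quartile or relative log expression scaling (adjusted p = 0.0604 and 0.0505) and in 11 fits with 1 library left out (0.0504 to 0.134), the highest of them without dE9 PMA library 1, the lowest of its group. Its changes of -0.52 in iE9 and -0.25 in WT cells did not pass (adjusted p = 0.0742 and 0.51). With the library number as a block within each line the iE9 fall passed (adjusted p = 0.0157).

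In the large-subunit group, 14 of 15 genes fell in iE9, 14 in dE9 and 12 in WT cells, with medians of -1.38, -1.15 and -1.09. MRTO4, whose yeast counterpart holds the place of the ribosomal stalk during assembly, had one of the largest falls of all members. MRTO4 had 22.5, 25.4 and 30.1 CPM in iE9 cells with PMA, against 112, 134 and 109.6 CPM in unstimulated iE9 cells. In dE9 cells MRTO4 had 41.7, 30.8 and 25.9 CPM with PMA and 142, 127 and 139.8 CPM without it. In WT cells MRTO4 had 29.4 and 28.6 CPM with PMA and 125 and 104 CPM without it. Levels with PMA stayed far below those without it, and MRTO4 changed by -2.19 ± 0.18 in iE9 cells, -2.05 ± 0.18 in dE9 cells and -1.98 ± 0.22 in WT cells (log2; adjusted p = 3.5e-06, 4.32e-06 and 6.3e-05 in the same order of lines). The gene overlaps EMC1 on the opposite strand. EBNA1BP2 is the counterpart of a yeast factor for large-subunit ribosomal RNA processing. EBNA1BP2 had 27.5, 44.1 and 40.1 CPM in iE9 cells with PMA, against 116, 213 and 174 CPM in unstimulated iE9 cells. In dE9 cells EBNA1BP2 had 73.5, 43.8 and 42.5 CPM with PMA and 237, 208 and 199.5 CPM without it. In WT cells EBNA1BP2 had 48.5 and 50.8 CPM with PMA and 202 and 189 CPM without it. PMA libraries were again the lower ones in each line, with log2 changes of -2.17 ± 0.26 in iE9 cells, -2.01 ± 0.25 in dE9 cells and -1.97 ± 0.31 in WT cells (adjusted p = 4.54e-05, 5.66e-05 and 0.000703 in the same order of lines).

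BOP1 forms the PeBoW complex with PES1 and WDR12, which acts in large-subunit ribosomal RNA maturation. BOP1 had 75.5, 90.4 and 77.1 CPM in iE9 cells with PMA, against 202, 283 and 231 CPM in unstimulated iE9 cells. In dE9 cells BOP1 had 110.9, 91.4 and 86.5 CPM with PMA and 309, 339 and 307 CPM without it. In WT cells BOP1 had 93.1 and 83.9 CPM with PMA and 280.5 and 254 CPM without it. The groups did not overlap, and BOP1 fell by 1.56 ± 0.16 in iE9 cells, 1.73 ± 0.16 in dE9 cells and 1.59 ± 0.20 in WT cells (log2; adjusted p = 1.49e-05, 6.05e-06 and 0.000127 in the same order of lines). PES1 changed by -1.63, -1.22 and -1.09, and WDR12 by -0.69, -0.74 and -0.64 in iE9, dE9 and WT cells. The WT call of WDR12 was lost with upper-quartile or relative log expression scaling (adjusted p = 0.0526 and 0.0534). It was also lost without the filter on low counts (0.103), over protein-coding transcripts only (0.0986), and in some fits with 1 dE9 or iE9 library left out (0.0507 to 0.0713). NOP16 is a nucleolar protein of the large-subunit precursor. NOP16 had 15.2, 21.4 and 20.5 CPM in iE9 cells with PMA, against 55.7, 91.0 and 72.6 CPM in unstimulated iE9 cells. In dE9 cells NOP16 had 45.0, 36.7 and 30.1 CPM with PMA and 94.96, 82.1 and 81.3 CPM without it. In WT cells NOP16 had 39.1 and 32.2 CPM with PMA and 80.6 and 71.9 CPM without it. The treatments were apart in each line, and iE9 PMA libraries had the lowest values of all. NOP16 changed by -1.94 ± 0.21 in iE9 cells, -1.21 ± 0.20 in dE9 cells and -1.10 ± 0.25 in WT cells (adjusted p = 2.34e-05, 0.000471 and 0.00642 in the same order of lines), the WT call being lost without unstimulated WT library 1 (0.0634) and without WT PMA library 2 (0.0818).

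GNL3, the nucleolar GTPase nucleostemin, changed by -1.38, -1.22 and -1.22 in iE9, dE9 and WT cells, and GRWD1, a ribosomal protein chaperone, by -1.42, -1.53 and -1.27; all of these passed. NOC2L, NOC3L, DDX18 and RRP1B fell in every line by 0.86, 0.85, 0.60 and 0.61 in iE9 cells on the log2 scale, though the iE9 call of DDX18 was lost with both iE9 libraries numbered 1 left out (-0.50, adjusted p = 0.0642). The WT calls of DDX18 and RRP1B were lost without the filter on low counts (adjusted p = 0.064 and 0.137). With length-scaled counts those of NOC2L, DDX18 and RRP1B were lost (0.084, 0.117 and 0.0591). NOP2, an RNA methyltransferase, fell in iE9 (-0.68) and dE9 cells (-0.70) but did not pass in WT cells (-0.46, adjusted p = 0.0724), where 4 alternatives passed it (0.00285 to 0.0366). NIP7 was the exception of the group. NIP7 had 54.2, 68.0 and 69.6 CPM in iE9 cells with PMA, against 65.2, 95.3 and 86.5 CPM in unstimulated iE9 cells. In dE9 cells NIP7 had 72.7, 81.2 and 60.2 CPM with PMA and 86.9, 93.1 and 88.1 CPM without it. In WT cells NIP7 had 69.7 and 68.2 CPM with PMA and 95.9 and 94.7 CPM without it. PMA libraries were below unstimulated ones in dE9 and WT cells, and in iE9 cells unstimulated library 1 lay within the PMA range. Its changes of -0.36 ± 0.16 in iE9 cells, -0.32 ± 0.16 in dE9 cells and -0.47 ± 0.20 in WT cells did not pass (adjusted p = 0.114, 0.143 and 0.107 in the same order of lines). With the library number as a block within each line NIP7 passed in all 3 (adjusted p = 0.0212, 0.0242 and 0.0171 in iE9, dE9 and WT cells).

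Both remaining factors fell strongly. LYAR, a nucleolar protein of growing cells that acts in ribosomal RNA processing, had the largest fall of all 43 genes. LYAR had 12.4, 25.5 and 22.5 CPM in iE9 cells with PMA, against 76.1, 145 and 111.4 CPM in unstimulated iE9 cells. In dE9 cells LYAR had 44.3, 23.2 and 16.7 CPM with PMA and 182, 134 and 143 CPM without it. In WT cells LYAR had 29.4 and 27.7 CPM with PMA and 156 and 147 CPM without it. dE9 PMA library 1, the PMA library with the lowest score on the first component, had the highest PMA value, and still lay below every unstimulated library. LYAR changed by -2.46 ± 0.35 in iE9 cells, -2.45 ± 0.34 in dE9 cells and -2.40 ± 0.42 in WT cells (log2; adjusted p = 0.000165, 0.000127 and 0.00136 in the same order of lines), or 5.50-fold, 5.45-fold and 5.29-fold down. DDX21 is an RNA helicase that links Pol I transcription to processing. DDX21 had 79.3, 136 and 131 CPM in iE9 cells with PMA, against 302, 338 and 309 CPM in unstimulated iE9 cells. In dE9 cells DDX21 had 93.7, 111.4 and 139 CPM with PMA and 403, 299 and 385 CPM without it. In WT cells DDX21 had 116 and 139 CPM with PMA and 392 and 359 CPM without it. All PMA libraries were the lower ones, and DDX21 fell by 1.45 ± 0.21 in iE9 cells, 1.66 ± 0.21 in dE9 cells and 1.55 ± 0.26 in WT cells on the log2 scale (adjusted p = 0.000228, 6.46e-05 and 0.00108 in the same order of lines).

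TPM ratios per library were taken for 9 pairs of partners, as descriptions with no test; 3 had no overlap between treatments over all lines and 6 overlapped. GAR1 over DKC1 was 1.25 to 1.57 in the 8 PMA libraries and 0.61 to 0.83 in the 8 unstimulated ones. WDR12 over BOP1 was 1.13 to 1.90 with PMA and 0.80 to 1.01 without it. Of the WDR12 TPM, 89.0% to 92.1% by group was assigned to retained-intron transcripts. Protein-coding transcripts held 81.4% to 82.4% of the BOP1 TPM with PMA and 93.1% to 97.6% without it, by group. This ratio therefore mostly sets retained-intron signal of WDR12 against BOP1. RRN3 over POLR1B was 2.34 to 4.69 with PMA and 1.42 to 2.15 without it, where RRN3 carries the uncertainty of its copies. For these 3 ratios no PMA library overlapped an unstimulated one. NOP58 over FBL overlapped, at 0.41 to 0.91 with PMA and 0.28 to 0.53 without it, and so did PES1 over BOP1, at 0.56 to 1 and 0.67 to 0.86. The other overlapping ratios were NOP56 over FBL (1.08 to 3.64 with PMA and 1 to 3.17 without it), NHP2 over DKC1 (2.44 to 4.98 and 2.32 to 3.70), UBTF over POLR1B (3.87 to 9.25 and 3.39 to 5.55) and POLR1A over POLR1B (1.01 to 2.66 and 0.83 to 1.71).

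**Figure D4:**
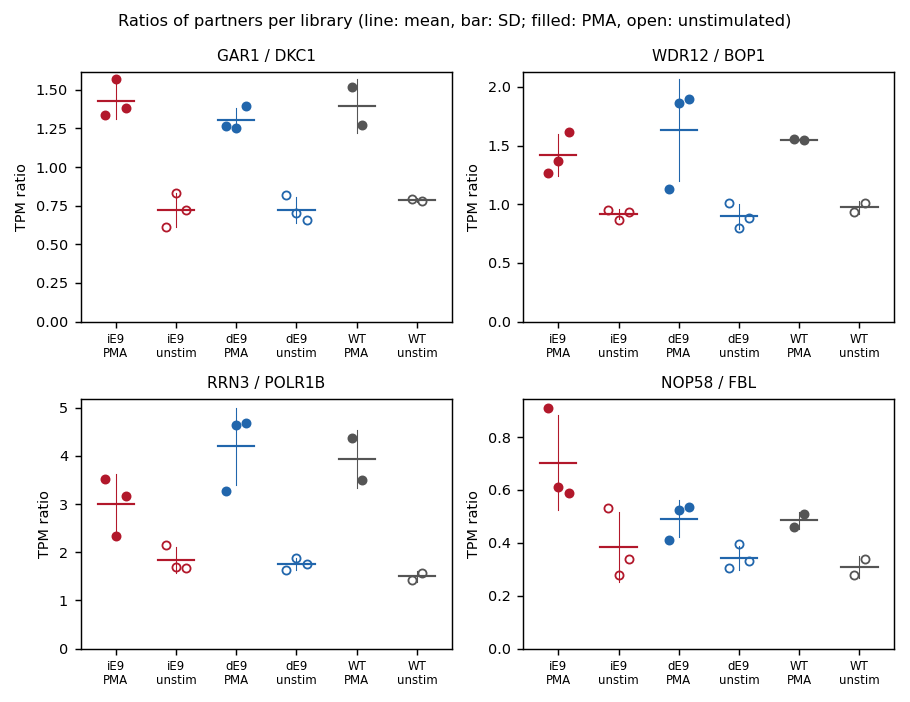
Ratio of the TPM of 4 pairs of partners (y axes, from 0) per library, by line and treatment; filled points are PMA libraries, open points unstimulated ones, lines group means and bars SD. GAR1 over DKC1 lies at 1.25 or above with PMA and at 0.83 or below without it, while NOP58 over FBL overlaps.

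Transcript usage within members was described by the share of a gene's TPM on protein-coding transcripts. The median share of the 43 genes was 82.1% with PMA and 89.8% without it in iE9 cells, 86.9% and 90.9% in dE9 cells, and 88.1% and 91.9% in WT cells. The median difference was -3.26 percentage points in iE9, -1.17 in dE9 and -0.63 in WT cells, beside -1.09, -0.36 and -0.28 over 9963 genes. With 1 library left out the members' medians ranged from -5.35 to -1.27 points in iE9, -1.35 to -0.27 in dE9 and -1.51 to 0 in WT cells. In an exact permutation test within lines over all 3 lines (two-sided, 2400 assignments), none of 40 members and none of the 9963 genes passed after adjustment (percent called 0 in each direction); the smallest p the test allows is 0.000833, which adjusts to 0.0686. BOP1 (-13.5 points), NOC2L (-11.9) and NOP56 (9.81) reached that smallest p. UBTF has an exon at chr17:44212344-44212454 that 3 annotated transcripts hold and 5 skip. Transcripts with that exon made up 31.4% ± 1.7 of the UBTF TPM assignable to it in iE9 cells with PMA and 39.9% ± 1.7 without it (SD, n = 3 each). The share was 31.9% ± 6.4 with PMA and 36.2% ± 1.0 without it in dE9 cells (n = 3 each), and 31.9% ± 1.9 and 40.5% ± 5.0 in WT cells (n = 2 each). The mean difference was -7.16 points (exact permutation test within lines, two-sided p = 0.00333, unadjusted, for an exon examined after the transcript values were seen), although dE9 PMA library 2, at 38.1%, lay above all 3 unstimulated dE9 libraries.

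Fewer members passed between lines than between treatments. Under PMA, 2 members passed as lower in iE9 than in dE9 cells (1.51% of all genes did) and none as higher (1.1%). NOP16 had 15.2, 21.4 and 20.5 CPM in iE9 cells with PMA, against 45.0, 36.7 and 30.1 CPM in dE9 cells with PMA. RRS1, a large-subunit assembly factor known from yeast, had 12.7, 14.9 and 16.6 CPM in iE9 cells with PMA, against 25.6, 37.3 and 20.4 CPM in dE9 cells with PMA. For both genes every iE9 library lay below every dE9 library (11.1% of all genes did), and below the WT libraries with PMA (21.3%), which had 39.1 and 32.2 CPM for NOP16 and 32.8 and 24.3 CPM for RRS1. The log2 change in iE9 over dE9 cells was -0.97 ± 0.20 for NOP16 (adjusted p = 0.026) and -0.91 ± 0.21 for RRS1 (adjusted p = 0.0341). In iE9 over WT cells it was -0.90 and -0.95, which did not pass (adjusted p = 0.0714 and 0.0627). These 2 comparisons share the iE9 libraries.

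Both calls depend on single libraries and on the fit. RRS1 was lost without dE9 PMA library 2 (-0.63, adjusted p = 0.116), and in 6 further fits with 1 library left out, 3 of them without a WT library (adjusted p = 0.0505 to 0.0544) and 3 without an iE9 PMA library (0.0705 to 0.126). NOP16 was lost without dE9 PMA library 2 (adjusted p = 0.0541) and without each iE9 PMA library (0.065 to 0.0984). The count of members passing was 0 without dE9 PMA library 2 or any iE9 PMA library, 1 without a WT unstimulated library or WT PMA library 1, 3 without dE9 PMA library 1 and 4 without unstimulated iE9 library 1. With both iE9 libraries numbered 1 left out, NOP16 passed (-0.83) and RRS1 did not (-0.81, adjusted p = 0.0917). In fits of only the groups compared and with limma voom neither passed. NOP16 overlaps HIGD2A on the opposite strand, which averaged 97.2 ± 34.3 TPM in iE9 cells with PMA and 130.9 ± 12.7 TPM in dE9 cells with PMA (SD, n = 3 each); its part in the NOP16 values was not tested. NOP16 lies at chr5:176383938-176388975 on the minus strand of GRCh38. The summed TPM of the 5 B cell markers was 304.1 to 539 in iE9 cells with PMA 14.8 to 203 in dE9 cells with PMA and 47.3 to 83.4 in WT cells with PMA. That of the 5 fibroblast or endothelial markers, 2 of which averaged at least 1 TPM, was 45.7 to 75.1, 15.2 to 49.7 and 18.2 to 21.2, and that of the 4 erythroid markers, with 2 at that level, 14.7 to 87.0, 2.37 to 74.9 and 2.12 to 2.38. Epithelial markers summed to 0.10 to 0.37, 0.22 to 27.8 and 0.38 to 0.40 TPM in the same order of lines. The part of these markers in the differences was not tested.

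PES1, RRP9 and BYSL came next (log2 changes of -0.64, -0.64 and -0.73; adjusted p = 0.0641, 0.0665 and 0.0703), and did not pass. Over all 43 genes the median log2 change of iE9 over dE9 cells with PMA was -0.21, with 35 below 0, beside a median of -0.02 over all genes. In the same direction but without any call, the median of iE9 over WT cells with PMA was -0.25 (0 called, where 0.791% of all genes were lower and 0.332% higher). Unstimulated, 0 members passed between iE9 and dE9 cells (median -0.24; 0.764% of all genes lower, 0.957% higher) or between iE9 and WT cells (median -0.15; 0.703% lower, 0.675% higher). Between dE9 and WT cells 0 members and 0 of all genes passed, unstimulated (median 0.10) or with PMA (median -0.01). At an unadjusted p under 0.05, edgeR gave 9 members for iE9 against dE9 with PMA, 9 for iE9 against WT with PMA, 2 and 1 for the same pairs unstimulated, and 0 for dE9 against WT in either state. Of all genes 19.1% and 14.2% did so for the iE9 pairs with PMA, and 15.1% and 15.1% unstimulated. For dE9 against WT it was 3.1% unstimulated and 2.54% with PMA. These shares count both directions, and the members' 9 of 43 (20.9%) for iE9 against dE9 is near its 19.1%. For iE9 against WT the members' 20.9% stands beside 14.2%. In both pairs with PMA the 9 members were lower in iE9 cells and 0 were higher. The share of all genes that were lower at this level was not taken. DESeq2 called 5 members for iE9 against dE9 with PMA, 2 for iE9 against WT with PMA and 0 in the other line comparisons, and limma voom 0, 3 and 0. DESeq2 called 7.01% of the genes it tested for iE9 against dE9 with PMA and 3.81% for iE9 against WT with PMA, and limma voom 0.703% and 5.65%. Directions of the line labelled iE9 rest on a label that the exon 9 share with PMA does not separate from WT, though the unstimulated shares did not overlap.

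**Figure D5:**
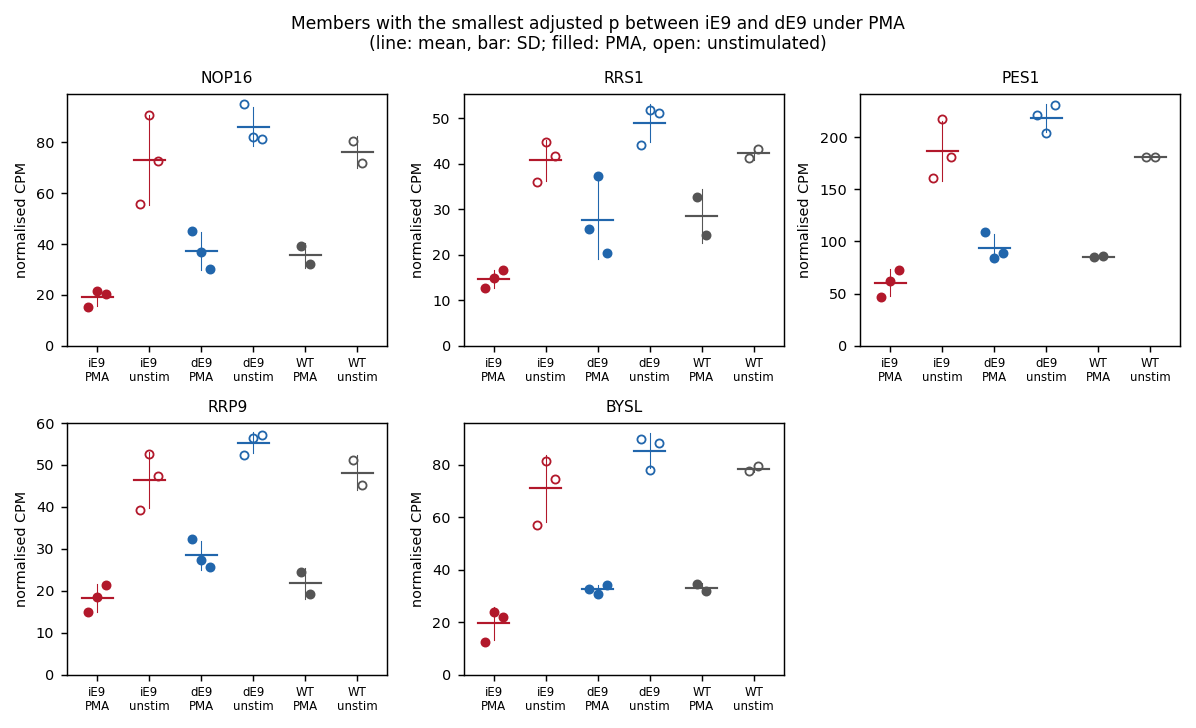
Normalised CPM (y axes, from 0) per library for the 5 members with the smallest adjusted p between iE9 and dE9 cells under PMA; filled points are PMA libraries, open points unstimulated ones, lines group means and bars SD. In NOP16, RRS1, PES1, RRP9 and BYSL all 3 iE9 PMA libraries lie below all 3 dE9 PMA libraries.

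Whether the PMA response itself differed between lines was tested with an interaction contrast, and no member passed in any of the 3 (0% of all genes did). At an unadjusted p under 0.05 edgeR gave 2 members for iE9 minus dE9, 2 for iE9 minus WT and 0 for dE9 minus WT, and DESeq2 and limma voom called 0 in each. Of all genes 6.86%, 5.65% and 1.56% had an unadjusted p under 0.05 in these contrasts. The members with the smallest p were again NOP16 and RRS1. For NOP16 the difference in log2 change was -0.73 ± 0.29 for iE9 minus dE9 (adjusted p = 0.613) and -0.84 ± 0.32 for iE9 minus WT (adjusted p = 0.763). For RRS1 it was -0.65 ± 0.29 (adjusted p = 0.708) and -0.90 ± 0.33 (adjusted p = 0.749). The higher counts of calls in iE9 and dE9 than in WT cells are therefore not shown to be different responses.

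Of a wider list of 130 further genes of the pathway, many also passed as lower with PMA. This list too was chosen with earlier results of these data known, so its counts are a description. In iE9 cells 78 passed as lower and 1 as higher, in dE9 cells 80 and 2, and in WT cells 53 and 1, with medians of -0.58, -0.62 and -0.51. Of all genes, 14.4%, 16.5% and 11.3% passed as lower in iE9, dE9 and WT cells, and 12.6%, 17.1% and 11.1% as higher. By class, 5 of 11 Pol I subunits and initiation factors fell in each line. Of 46 small-subunit factors 31 fell in iE9, 32 in dE9 and 16 in WT cells, of 50 large-subunit factors 29, 29 and 21, of 9 snoRNP factors 6, 6 and 4, and of 14 exosome subunits 7, 8 and 7. The lowest adjusted p values in WT cells belonged to TSR1, PWP2, EXOSC9 and GTPBP4. TSR1, a GTPase-like factor of the small-subunit precursor, averaged 23.7 ± 4.2 TPM in iE9 cells with PMA and 70.2 ± 7.0 TPM without it, 24.2 ± 2.1 and 76.8 ± 6.9 TPM in dE9 cells, and 25.8 ± 3.1 and 65.0 ± 0.65 TPM in WT cells (SD). It fell by 1.66, 1.62 and 1.45 on the log2 scale. PWP2, of the processome, changed by -1.23, -1.46 and -1.12, EXOSC9, of the RNA exosome, by -0.78, -1.50 and -1.32, and GTPBP4, a large-subunit GTPase, by -1.30, -1.12 and -1.16 in iE9, dE9 and WT cells. Of the genes that rose, ZNF622, a late large-subunit factor, did so in dE9 (0.41, adjusted p = 0.0313) and WT cells (0.49, adjusted p = 0.0475), NOP53 in dE9 (0.73) and EXOSC4 in iE9 cells (0.77). No gene of the wider list rose in all 3 lines. Between iE9 and dE9 cells, NAT10, IMP4, NOB1 and LTV1 were lower in iE9 with PMA (log2 changes of -0.60, -0.61, -0.75 and -0.67), and SHQ1, an H/ACA assembly factor, unstimulated (-1.07, adjusted p = 0.0291). With PMA these were 4 of 130 genes, where 1.51% of all genes passed as lower. Unstimulated, SHQ1 was 1 of 130, where 0.764% of all genes did, so that count is near the share of all genes.

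MYC, a transcription factor for many genes of the pathway, had 6.02, 11.6 and 4.69 CPM in iE9 cells with PMA, against 159.5, 224 and 158 CPM in unstimulated iE9 cells. In dE9 cells MYC had 10.8, 8.06 and 3.90 CPM with PMA and 230.3, 158 and 211 CPM without it, and in WT cells 5.37 and 7.03 CPM with PMA and 283 and 245 CPM without it. All PMA libraries were thus far below all unstimulated ones, with log2 changes of -4.60 ± 0.39 in iE9 cells, -4.71 ± 0.39 in dE9 cells and -5.41 ± 0.49 in WT cells (adjusted p = 3.32e-06, 2.27e-06 and 1.3e-05 in the same order of lines). The part of MYC in the members' fall was not tested. HDAC7 itself had 405, 325 and 322 CPM in iE9 cells with PMA, against 204, 129 and 172 CPM in unstimulated iE9 cells. In dE9 cells HDAC7 had 158, 155 and 251 CPM with PMA and 46.8, 59.1 and 53.4 CPM without it, and in WT cells 244 and 238 CPM with PMA and 45.7 and 58.1 CPM without it. HDAC7 rose with PMA in every line, by 1.06 ± 0.21 in iE9 cells, 1.82 ± 0.22 in dE9 cells and 2.21 ± 0.27 in WT cells on the log2 scale (adjusted p = 0.00234, 3.82e-05 and 0.000128 in the same order of lines).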

How the data were processed

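RNA of 16 libraries was sequenced as polyadenylated RNA. Reads were quantified with Salmon on hg38, per the submitters' processing notes, with versions not given in the sources used here. The deposited files hold estimated counts and TPM per transcript by the authors for 205870 transcripts of GENCODE release 29; no column of values was left unused. No source used here says whether counting used strand.

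For each gene the estimated counts of its transcripts were added up, then rounded. Genes passing filterByExpr (18073) were fitted with edgeR's quasi-likelihood test (edgeR 4.0.16, R 4.3.3, TMM scaling), with 1 coefficient for each of 6 groups, so that all groups share 1 estimate of the spread (common biological coefficient of variation 31.8%). P-values are two-sided, adjusted by Benjamini-Hochberg over all genes tested, with a threshold of 0.05. CPM values are TMM-normalised. TPM was used for levels between genes, with no test. Alternatives used DESeq2 1.42.0, limma 3.58.1, other scalings, filters and transcript sets, and each library left out. Of the fits, only the main edgeR fit was tested on simulated data, for PMA against unstimulated in WT cells. Totals of 14536537 to 21888896 counts per library set the precision. Tables were handled with Python 3.11.15 and pandas 2.3.3.

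The members and the gene lists were chosen with earlier results of these data known. All members could be named; per-library values are given for up to 4 genes of each role, for members passing in fewest lines and for those passing between lines. Deviations from group means of same-numbered libraries correlated within dE9 (0.3, 0.3 and 0.24) and within iE9 (0.44, 0.23 and 0.19), but at 0.07 and 0.07 within WT and at -0.07 to 0.12 across lines, so the number pairs libraries within the 2 edited lines only.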

Additional observations from a re-analysis of the deposited data

How the results depend on the processing

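Of 2096 single-gene values with 1 library left out, 1983 kept direction and side of the threshold, 101 lost the call, 12 gained one and 0 changed direction; of 1573 under other alternatives the numbers were 1483, 54, 36 and 0. Members lower with PMA numbered 37 to 42 in iE9, 38 to 41 in dE9 and 21 to 37 in WT cells with 1 library left out, 21 being the count without WT PMA library 1. Under the other alternatives they numbered 35 to 42, 36 to 42 and 27 to 41. With a replicate block shared by all lines they numbered 41, 41 and 34, and with the block within each line 42, 42 and 40. A single member, RRN3, passed as higher in dE9 cells over protein-coding transcripts (1 in place of 0) and without dE9 PMA library 1 (0 to 1 over the fits with 1 library left out). Members passing between iE9 and dE9 cells with PMA numbered 5 with DESeq2 (7.01% of all genes), 5 with upper-quartile scaling (3.04%) and 4 without the low-count filter (5.41%). They numbered 1 with length-scaled counts (1.54%). With both iE9 libraries numbered 1 left out, an alternative chosen after seeing the data, they numbered 1 (1.9%). The count was 0 in fits of only the groups compared (0.297%), 0 with limma voom (0.703%) and 0 to 4 with 1 library left out. Between iE9 and WT cells with PMA they numbered 2 with DESeq2, 3 without the filter, 3 with limma voom, 1 in fits of only the groups compared and 0 to 2 with 1 library left out. Of all genes, DESeq2 called 3.81% between iE9 and WT cells with PMA, and limma voom 5.65%. Without the filter 3.49% of all genes passed there, and in fits of only the groups compared 4.06%. The exon 9 share of HDAC7 in iE9 minus WT cells with PMA was 1.44 points, -3.11 points over protein-coding transcripts and -5.13 to 6.78 points with 1 library left out. The median difference in protein-coding share in WT cells was -0.63 points and ranged from -1.51 to 0 points with 1 library left out. CCGGAAGT was in 4 member promoters on the given strand only. The within-line block and the pseudogene sum were also chosen after seeing the data. The cause of these changes was not tested.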
